A study of Mus musculus with 20 samples.

Results

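The comparison described here set metastases taken 9 days after injection of MC38 cells against metastases taken at 11 dpi, in 8 of the 20 libraries of the series. MC38 is a colon carcinoma cell line of C57BL/6 origin, and WT mice received these cells by injection into the spleen, from where they reach the liver. The 4 libraries of day 9 were the low-content samples Lt_1 and Lt_2 and the medium-content samples Mt3_1 and Mt3_2. The 4 libraries of day 11 were the medium-content samples Mt2_1, Mt2_2, Mt1_1 and Mt1_2. All of them were pieces cut around a tumor, so each held metastasis together with the liver beside it. The mice are male in the labels and female in the study's methods. Saline-treated liver (con, day 0), tumor-free liver of an injected mouse (L-con, day 12) and high-content tumor (Ht, day 12) served only to set which genes belonged to liver. Each group came from 2 livers, and no source ties replicates to separate cultures of cells, so p-values measure the spread between these samples. Day and tumor content cannot be told apart in full, because low-content tumor was taken on day 9 only.

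A piece of liver with a growing metastasis contains hepatocytes, tumor cells and stroma, and its RNA is a mixture of all of them. Hepatocytes make most plasma proteins, among them albumin (Alb) and the acute-phase proteins, which are secreted in larger amounts during inflammation under the control of cytokines. Tumor cells divide, and around them macrophages, fibroblasts and vessels are remodeled. In such bulk samples, fewer cells of a type and less RNA per cell cannot be told apart.

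The liver part of the libraries varied widely on day 11 and little on day 9. Alb, the major plasma protein, stood at 75867 CPM (counts scaled to the library's total) in Lt_1, 46896 in Lt_2, 68514 in Mt3_1 and 48411 in Mt3_2. On day 11 it stood at 51831 CPM in Mt2_1, 16249 in Mt2_2, 62867 in Mt1_1 and 19259 in Mt1_2. Both replicates numbered 2 were thus low on day 11, and the replicates numbered 1 lay within the range of day 9. The mean of log2(CPM + 1) differed by -0.88 between day 11 and day 9, which an exact two-sided permutation test over the 4 and 4 libraries did not separate (p = 0.2, smallest p possible 0.0286). That test takes no account of the replicate number. Within each number both day 11 values were below both day 9 values, and edgeR called Alb lower with the replicate number as a block (-1.35, adjusted p = 0.023) and not without it (-1.04, adjusted p = 0.315).

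Broader measures of liver RNA did not overlap between the days. Liver-restricted genes were defined as 398 genes with at least 10 CPM in con and at least 16 times the level of Ht. They held 26.8, 21, 24.9 and 21.8% of all counts in Lt_1, Lt_2, Mt3_1 and Mt3_2. They held 20.7, 6.68, 15.9 and 6.74% in Mt2_1, Mt2_2, Mt1_1 and Mt1_2. The mean fell from 23.6% ± 2.7 (SD) to 12.5% ± 6.97, with Mt2_1 close to the lowest day 9 library (exact permutation p = 0.0286). In con they held 31.3 and 32.3%, and in the Ht libraries from 0.842 to 1.29%. The hepatocyte score, the mean log2(CPM + 1) of 13 hepatocyte markers on total-count CPM, ranged from 11.57 to 11.98 on day 9 and from 10.12 to 11.51 on day 11 (difference -0.89, exact permutation p = 0.0286). Genes with at most 1 CPM in con showed the reverse, with 0.602 to 1.18% of counts on day 9 and 1.19 to 3.16% on day 11.

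Transcripts of the mitochondrial genome, which encode subunits of the respiratory chain, held a smaller share on day 11. Their share was 4.58, 3.99, 3.96 and 4.3% of counts in Lt_1, Lt_2, Mt3_1 and Mt3_2. It was 2.87, 2.03, 2.5 and 2.08% in Mt2_1, Mt2_2, Mt1_1 and Mt1_2, so that all day 11 libraries lay below all day 9 libraries (exact permutation p = 0.0286). The liver part differed between the days as well, and its part in this difference was not tested.

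**Figure D1:**
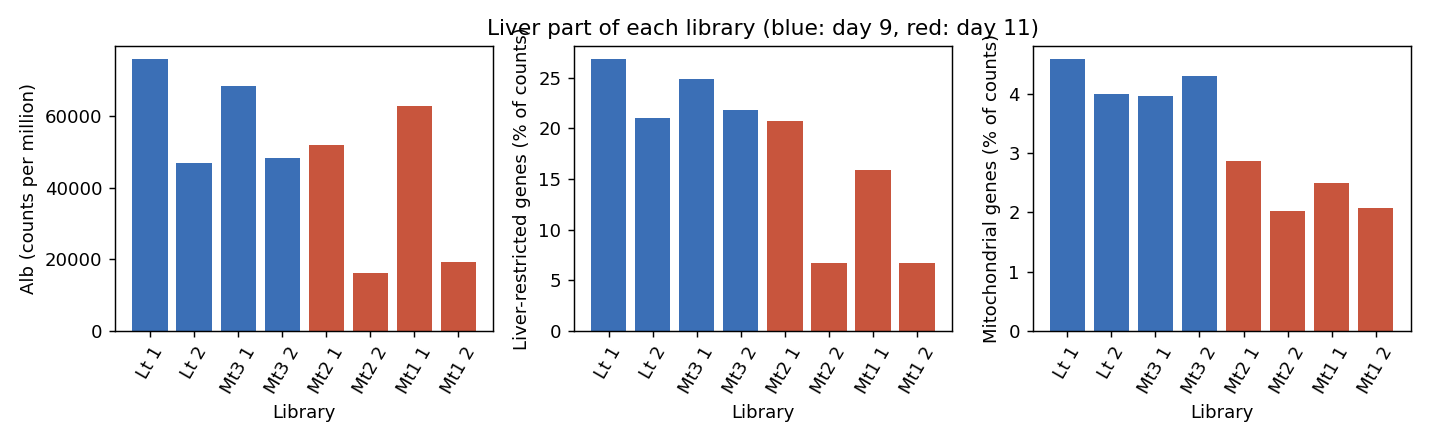
Bars give, for each of the 8 libraries, Alb in CPM, the share of counts on liver-restricted genes and the share on mitochondrial genes, both in %, with day 9 in blue and day 11 in red. Mt2_2 and Mt1_2 stand lowest in all 3 panels, at 16249 and 19259 CPM of Alb and at 6.68 and 6.74% of liver-restricted counts.

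The comparison was therefore made on 4 scales. The first compared all genes after TMM scaling, which centers the bulk of the genes and leaves the difference in liver part in place. The second added the hepatocyte score to the model and asked what differed between days at an equal score. The scores of the days did not overlap, so no library of day 9 had the score of a library of day 11. Values at an equal score therefore rest on a linear term for the score, and day and score are hard to separate. Another scale looked only at liver-restricted genes, relative to their own sum and with TMM scaling among them. The last looked only at genes with at most 1 CPM in con, called non-liver genes below, and was scaled in the same way. Below, values relative to the liver-restricted sum and CPM of the liver-restricted or non-liver part include this TMM scaling. A gene counted as called when its adjusted p did not exceed 0.05 and its level differed by 1 log2 unit or more.

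With TMM scaling, the genes that rose from day 9 to day 11 included members of the proliferation, matrix and tumor cell lists, and those that fell included members of the hepatocyte metabolism and acute-phase lists. Of 14865 genes tested by edgeR's quasi-likelihood test, 746 rose (5.02%) and 501 fell (3.37%), and the median log2 fold change was -0.01. Without regard to the test, 2250 genes (15.1%) were higher in all 4 day 11 libraries than in any day 9 library, and 1920 (12.9%) were lower. The calls stood close to the threshold, since the smallest adjusted p was 0.0334. No gene was called when Lt_1, Lt_2, Mt3_2, Mt2_2, Mt1_1 or Mt1_2 was left out, with 4647 to 6261 genes then at an unadjusted p below 0.05 against 6600 in the full set. Without Mt3_1, 2 genes were called, and without Mt2_1, the day 11 library richest in liver-restricted genes, 3092 were (1330 up, 1762 down). In the medium-content libraries alone and in a model of the 4 groups 0 were called. With the block of replicate numbers, 897 genes rose and 1480 fell, and 1213 of the 1247 calls without the block were among them. Scaling by total counts moved the median of all genes to 0.47 and turned the split to 2693 higher and 341 lower.

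At an equal hepatocyte score, no gene passed the test (0% higher and 0% lower), and the smallest adjusted p was 0.41. At an unadjusted p below 0.05, 891 genes were higher (5.99%) and 664 lower (4.47%) on day 11, and DESeq2 called 30 genes, 10 up and 20 down. The number at an unadjusted p below 0.05, 1555 by edgeR, depended on the setting. It was 3960 with Alb as covariate in place of the score, 2390 with the block and 525 without Mt1_1. Values at an equal score are therefore given below as estimates with unadjusted p-values. Because the scores of the days did not overlap, the absence of calls does not show that the days were alike.

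**Figure D2:**
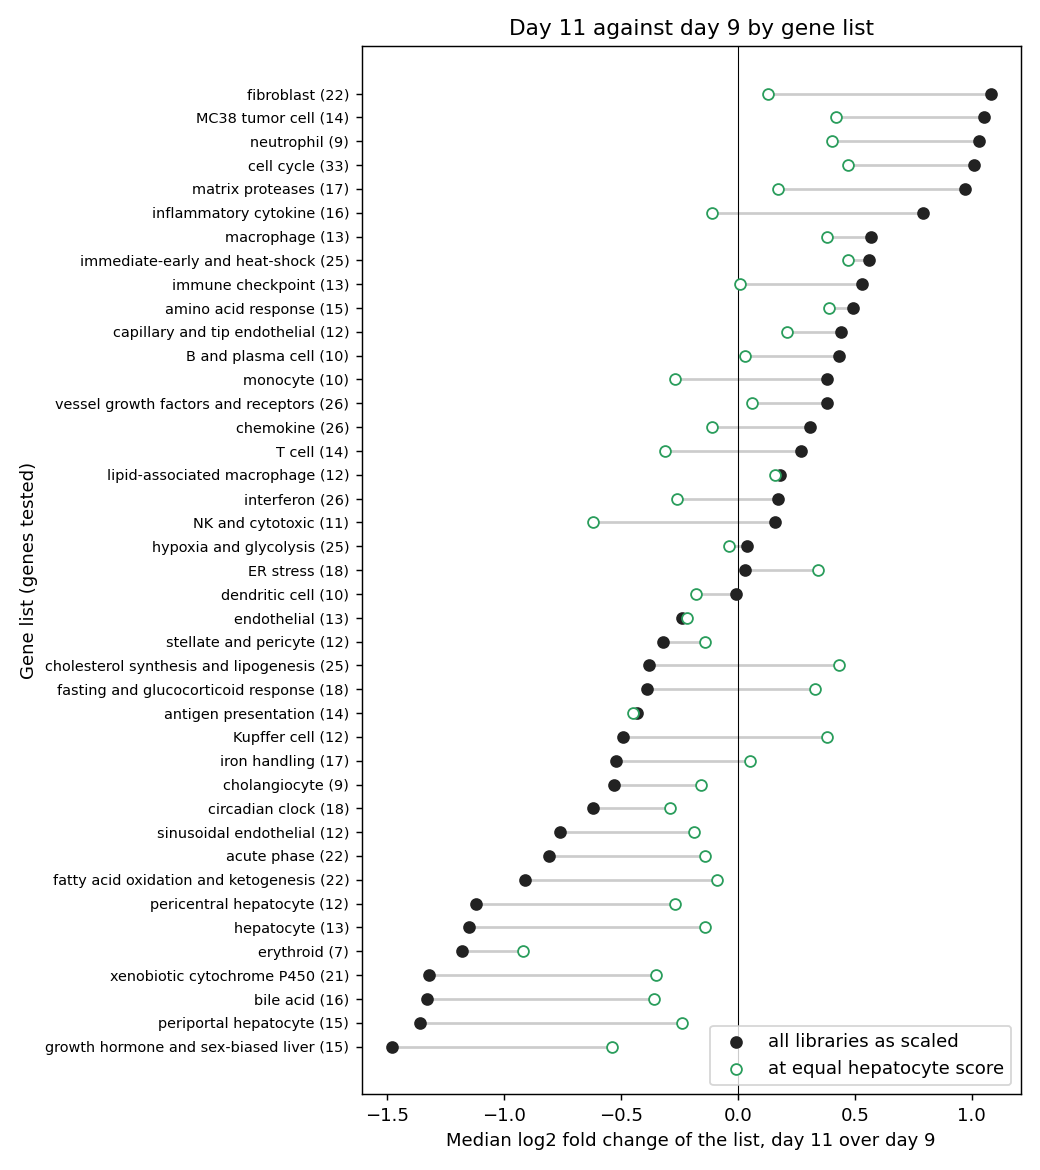
Each row is a gene list with the number of genes tested in parentheses, and the horizontal axis is the median log2 fold change of day 11 over day 9. Filled points are TMM-scaled values and open green circles are values at an equal hepatocyte score. Fibroblast genes moved from a median of 1.08 to 0.13, erythroid genes only from -1.18 to -0.92, and Kupffer cell genes crossed from -0.49 to 0.38.

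Of 33 cell cycle genes tested, 18 rose and 0 fell, 22 were higher without overlap between the days, and the median was 1.01 against -0.01 over all genes. At an equal hepatocyte score 0 were called, with 33 values above 0, a median of 0.47 and 11 genes at an unadjusted p below 0.05. Mki67, the marker of dividing cells, measured 68.4, 114, 85.6 and 125 TMM-scaled CPM in Lt_1, Lt_2, Mt3_1 and Mt3_2. It measured 130, 258, 179 and 244 CPM in Mt2_1, Mt2_2, Mt1_1 and Mt1_2. The days did not overlap, although Mt2_1 lay just above Mt3_2, and the log2 fold change was 1.05 ± 0.27 (SE, adjusted p = 0.0371). For Mki67 at an equal score it was 0.43 (unadjusted p = 0.103).

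Ccnd1, the cyclin D that drives entry into the cycle, separated the days more widely. Its level was 75.1, 124, 106 and 112 CPM on day 9 and 176, 255, 249 and 242 CPM on day 11, in the same order of libraries. It rose by 1.14 ± 0.19 on the log2 scale (adjusted p = 0.0334) and was 0.89 higher at an equal score (unadjusted p = 0.00238). Other members called up included Plk1 (1.16, and 0.68 at an equal score) and Aurkb (1.21 and 0.76), kinases of mitosis, and Foxm1 (1.25 and 0.67), a transcription factor of the G2 phase. Mcm2 (1.02 and 0.47) and Mcm5 (1.09 and 0.46) of the replicative helicase rose as well. Pcna, the polymerase clamp, was 0.64 higher and Tyms, which makes thymidylate, 0.35 higher, and neither was called. Cell cycle calls numbered 19 with the block, 29 without Mt2_1 and 32 with total-count scaling. They numbered 0 without any other single library, 0 in the medium-content libraries alone and 0 in a model of the 4 groups, with medians of 0.88 to 1.13 over these settings.

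Genes marking MC38 cells moved alongside. Of 14 tested, 6 rose and 0 fell (median 1.05, and 0.42 at an equal score). Msln, which encodes the surface protein mesothelin, had 14.7, 26.4, 21.3 and 23.6 CPM in Lt_1, Lt_2, Mt3_1 and Mt3_2. It had 43, 96.9, 62.8 and 84.6 CPM in Mt2_1, Mt2_2, Mt1_1 and Mt1_2, and even the lowest day 11 library exceeded every day 9 library. The log2 fold change was 1.74 ± 0.27 (adjusted p = 0.0334), and at an equal score it was 1.05 ± 0.21 (unadjusted p = 0.000652). Lgals1 (1.05, and 0.43 at an equal score), a galectin, Flnc (1.32 and 0.65), a filamin that crosslinks actin, Stra6 (1.36 and 0.55), a retinol transporter, and Anxa1 (1.13 and 0.41), an annexin, also rose. The epithelial keratins Krt7 (-0.53) and Krt19 (-0.47) were low and not called, at no more than 2.91 and 7.42 CPM in any library.

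Immediate-early genes are switched on within minutes of a stimulus. They were listed jointly with heat-shock genes, and of the 25 tested 4 rose and 0 fell, with a median of 0.56. At an equal score 0 were called, and the median was 0.47 with 11 higher and 0 lower at an unadjusted p below 0.05. Jun, a subunit of the AP-1 transcription factor, measured 42.5, 50.4, 52 and 48 CPM in Lt_1, Lt_2, Mt3_1 and Mt3_2. It measured 74.3, 98.2, 96.4 and 105 CPM in Mt2_1, Mt2_2, Mt1_1 and Mt1_2. The libraries of each day lay close together and apart from the other day. The fold change of 0.96 ± 0.13 on the log2 scale (adjusted p = 0.0334) missed the call only by its size, and it was 0.72 ± 0.14 at an equal score.

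Its partner Fos rose by 1.62 ± 0.33 (adjusted p = 0.0334, and 1.27 at an equal score), from 2.16 to 6.14 CPM over the day 9 libraries to 7.75 to 14.7 CPM over those of day 11. Nr4a1, a nuclear receptor of the same response, rose by 1.18 ± 0.18 (0.98 at an equal score), from 3.54 to 4.46 CPM to 7.56 to 11.4 CPM. Myc rose by 1.08 ± 0.19 (0.72 at an equal score), from 15.5 to 24.1 CPM to 32.5 to 49 CPM. The genes of heat-shock proteins in the list, such as Hspa8 (0.01) and Hsp90aa1 (0.20), were not called. Cyr61, which encodes a secreted matrix protein and is induced by serum, came first by p among the genes higher at an equal score (0.88 ± 0.17, unadjusted p = 0.000462), against 1.77 with TMM. It was not called at an equal score.

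**Figure D3:**
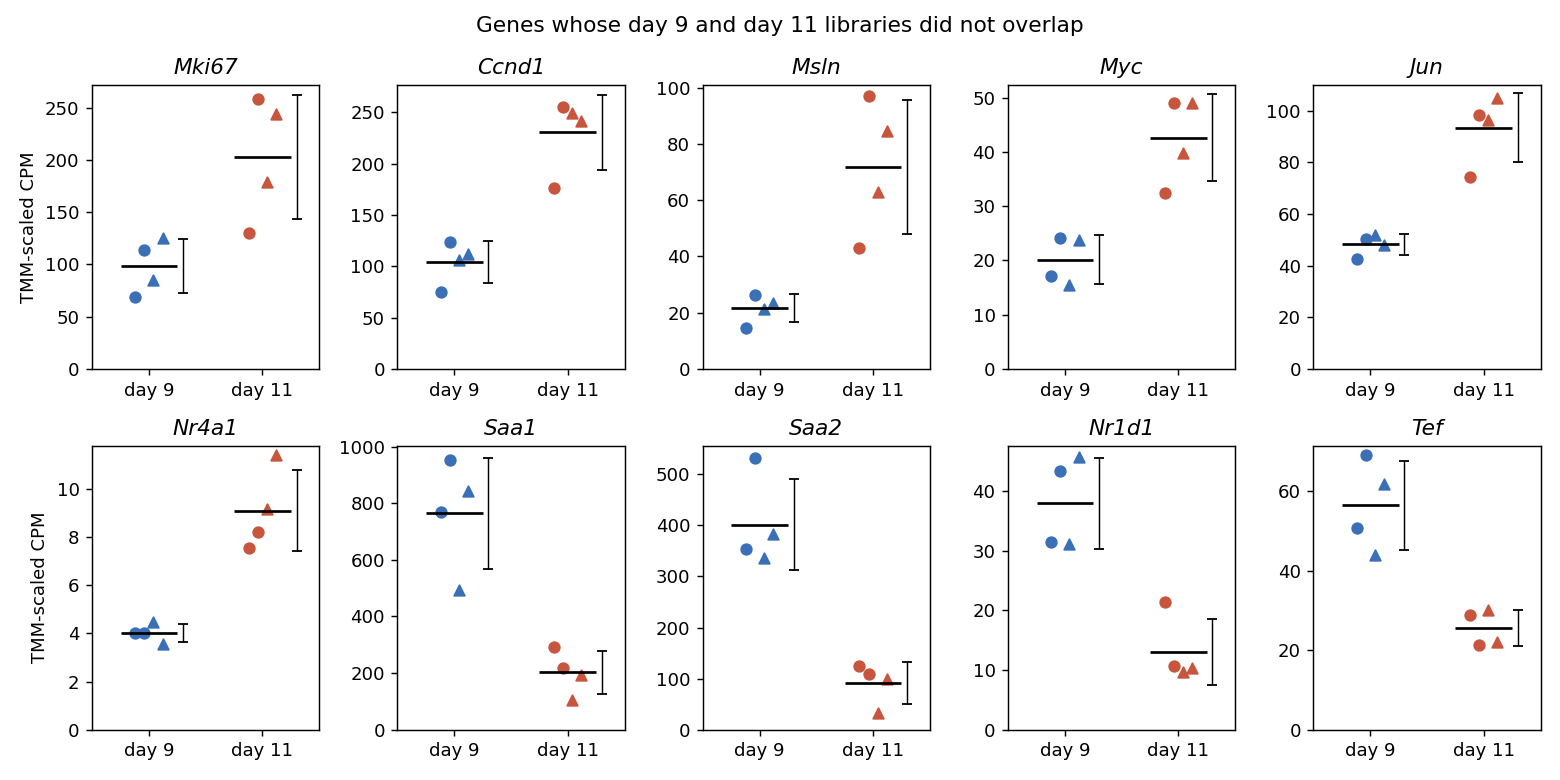
TMM-scaled CPM of 10 genes in each library by day, with circles for Lt (day 9) or Mt2 (day 11), triangles for Mt3 or Mt1, a line at the mean and a bar of 1 SD. The genes were chosen because their days did not overlap. Ccnd1 lay at 75.1 to 124 CPM on day 9 and 176 to 255 on day 11, and Saa1 at 493 to 953 and 106 to 292.

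Among 15 genes of the amino acid response, 5 rose and 0 fell (median 0.49, and 0.39 at an equal score). They were Asns (1.09, and 0.53 at an equal score), which makes asparagine, Psat1 (1.29 and 0.52) and Phgdh (1.28 and 0.53) of serine synthesis, Slc7a11 (2.00 and 1.00), the cystine transporter, and Slc7a5 (1.40 and 0.89), which imports large neutral amino acids. Slc7a5 measured 16.9, 39, 34.4 and 35.1 CPM on day 9 and 67.1, 88.7, 68.5 and 107 CPM on day 11. Chac1 (0.01) and Sesn2 (0.17), further targets of the transcription factor ATF4, were not called. Vldlr, a lipoprotein receptor, was the member with the lowest value (-1.68 ± 0.68, adjusted p = 0.0919, and -2.18 at an equal score) at no more than 3.11 CPM in any library, and DESeq2 called 1 member down. Among 17 matrix proteases and their inhibitors, 5 rose and 0 fell (median 0.97), namely Mmp9 (1.40, and 0.62 at an equal score), Mmp11 (1.22 and 0.45), the urokinase gene Plau (1.16 and 0.58), its receptor Plaur (1.03 and 0.15) and the inhibitor Timp2 (1.07 and 0.62). The protease median was 0.17 at an equal score, with 12 values above 0 and 5 below.

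The fibroblast genes depended on the scaling. Of 22 tested, 6 rose and 0 fell with a median of 1.08, and 10 rose with the block, yet the median at an equal score was 0.13. Col1a1, a chain of type I collagen, had 142, 338, 295 and 254 CPM in Lt_1, Lt_2, Mt3_1 and Mt3_2 and 483, 717, 485 and 1270 CPM in Mt2_1, Mt2_2, Mt1_1 and Mt1_2. The days did not overlap and Mt1_2 stood far above the others (1.52 ± 0.38, adjusted p = 0.0371, and 0.57 at an equal score). The collagens Col5a1 (1.32, and 0.67 at an equal score) and Col12a1 (1.81 and 0.27) rose. So did Fap (1.24 and 0.55), a membrane protease of activated fibroblasts, Pdgfra (1.10 and 0.52), the receptor for platelet-derived growth factor, and Thbs2 (1.24 and 0.36), a matrix glycoprotein. The smooth muscle actin Acta2 had 19.6 to 45.4 CPM on day 9 and 30.2 to 95.9 CPM on day 11, overlapped and was not called (1.16 ± 0.44, adjusted p = 0.0793, and 0.05 at an equal score). Stellate cell and pericyte genes, from the liver's own mesenchyme, had a median of -0.32 (-0.14 at an equal score, and 0.15 with total-count scaling, where 1 rose and 0 fell), with only the lectin Colec11 called among 12 (-1.24, and -0.29 at an equal score).

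Of 13 macrophage genes tested, 2 rose and 0 fell (median 0.57), and 12 of the 13 had values above 0. At an equal score 0 were called, with 13 values above 0, 2 of them at an unadjusted p below 0.05 (median 0.38). Adgre1, which encodes F4/80, measured 58.1, 95.5, 73.1 and 88.4 CPM in Lt_1, Lt_2, Mt3_1 and Mt3_2 and 97.2, 120, 133 and 117 CPM in Mt2_1, Mt2_2, Mt1_1 and Mt1_2. Its days separated by a narrow margin, and its log2 fold change of 0.57 ± 0.18 (adjusted p = 0.0499, and 0.45 at an equal score) was under the size required for a call. The 2 members called were Ms4a7 and Cd14. Ms4a7, a membrane protein of macrophages, had 7.06, 5.51, 10.3 and 5.06 CPM on day 9 and 16.6, 38.3, 19.8 and 34.9 CPM on day 11. It rose by 1.98 ± 0.33 (adjusted p = 0.0334) and was 1.17 higher at an equal score (unadjusted p = 0.00246). Cd14, the co-receptor for lipopolysaccharide, rose by 1.13 ± 0.22 (0.72 at an equal score), from 11.8 to 14.4 CPM to 18.2 to 40 CPM. Fcrls, an Fc receptor-like gene of resident macrophages, rose by 2.08 ± 0.35 and was 1.79 higher at an equal score.

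Kupffer cells are the resident macrophages of the liver sinusoid. Of 12 of their genes, 1 fell and 0 rose (median -0.49), and 3 fell with the block. At an equal score 0 were called and 9 of 12 had values above 0 (median 0.38, as for the macrophage list). Clec4f, a lectin specific to Kupffer cells, measured 291, 258, 221 and 284 CPM on day 9. It measured 243 in Mt2_1, 101 in Mt2_2, 322 in Mt1_1 and 87.5 in Mt1_2, so the values of day 11 split by replicate number as Alb did and were not separated from day 9 (-0.49 ± 0.40, adjusted p = 0.358). Timd4 and Vsig4 had the same layout, with 6.69 and 6.91 CPM of Timd4 in Mt2_2 and Mt1_2 against 16.2 to 20.9 CPM elsewhere. The Langerhans-type lectin Cd207 was the member that fell (-1.42 ± 0.40, adjusted p = 0.0422, and -0.49 at an equal score).

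Of 10 monocyte genes tested, 2 rose and 0 fell (4 rose with DESeq2 and 3 with the block), and 4 were higher and 0 lower at an unadjusted p below 0.05. Their median was 0.38 with TMM, and -0.27 at an equal score, where 0 were called. Itgam, which encodes CD11b, measured 7.79, 12.5, 7.77 and 8.79 CPM in Lt_1, Lt_2, Mt3_1 and Mt3_2 and 11.1, 35, 17.5 and 27 CPM in Mt2_1, Mt2_2, Mt1_1 and Mt1_2. It rose by 1.30 ± 0.34 (adjusted p = 0.038, and 0.37 at an equal score, unadjusted p = 0.217), with Mt2_1 inside the range of day 9. Vcan, a matrix proteoglycan, was the other call (1.13, and 0.48 at an equal score). Ly6c2, the surface marker of inflammatory monocytes, ranged from 20.6 to 79.7 CPM on day 9 and from 24.4 to 56.1 CPM on day 11 (-0.31 ± 0.45), and its high values were those of the replicates numbered 2 on both days. Among 12 genes of lipid-associated macrophages (median 0.18, and 0.16 at an equal score), Trem2 rose (1.23, and 0.65 at an equal score) and the fatty acid carrier Fabp5 fell (-1.12 and -0.69).

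Chemokine genes split between the directions. Of 26 tested, 3 rose and 1 fell (median 0.31, and -0.11 at an equal score), and 6 rose and 0 fell with total-count scaling. The monocyte attractants Ccl7 (1.16 ± 0.33) and Ccl12 (1.07 ± 0.30) and platelet factor Pf4 (1.41 ± 0.33) were the ones that rose, with values of 0.29, 0.39 and 0.41 at an equal score. Cxcl12, the ligand of CXCR4, measured 310, 238, 290 and 230 CPM on day 9 and 189, 74.7, 154 and 83.8 CPM on day 11 and fell (-1.09 ± 0.30, adjusted p = 0.0416, and -0.40 at an equal score). Among 16 inflammatory cytokines (median 0.79, and -0.11 at an equal score), Csf1 (1.02, and 0.34 at an equal score), the growth factor of macrophages, and Tgfb3 (1.24 and 0.08) rose.

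The lists of lymphocytes and antigen presentation had 0 members called by edgeR. Among 11 NK and cytotoxic genes (median 0.16) 1 was higher at an unadjusted p below 0.05, and DESeq2 and the block each called 1 up. The sign of the NK median turned to -0.62 at an equal score, with 10 of 11 lower, and it was -0.50 over the 9 tested among non-liver genes, with 8 lower and 3 of them at an unadjusted p below 0.05. With TMM scaling alone the NK median also turned without Lt_1, to -0.18 with 3 higher and 8 lower. Among 10 B and plasma cell genes (median 0.43) 2 were higher at an unadjusted p below 0.05, DESeq2 called 2 up and the block 1, and edgeR called 3 up without Mt2_1. The B and plasma cell median was 0.03 at an equal score and -0.25 over 6 non-liver genes. Among 14 T cell genes, 0 passed by edgeR or DESeq2 and 0 had an unadjusted p below 0.05, with a median of 0.27 that became -0.31 at an equal score (13 of 14 lower) and -0.41 over 12 non-liver genes (11 lower, 3 at an unadjusted p below 0.05). The T cell median with TMM scaling was 0.03 without Lt_1. Among 14 genes of antigen presentation, 0 were called by either tool, and 6 were lower and 0 higher at an unadjusted p below 0.05. Their median was -0.43 with TMM, -0.45 at an equal score (13 of 14 lower, 2 at an unadjusted p below 0.05) and 0.03 with total-count scaling. H2-Ab1, a chain of the class II complex, had 227, 462, 221 and 460 CPM in Lt_1, Lt_2, Mt3_1 and Mt3_2 and 212, 215, 189 and 223 CPM in Mt2_1, Mt2_2, Mt1_1 and Mt1_2. Lt_2 and Mt3_2 were thus high and the remaining 6 libraries alike (-0.71 ± 0.27, adjusted p = 0.0829). Class II genes Cd74 and H2-Aa had the same pair of high libraries, at 932 and 1030 CPM and at 374 and 375 CPM.

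Immunoglobulin constant regions led the rising genes named by rule in fold, from very low levels. Ighg1 measured 0.131 to 0.364 CPM on day 9 and 0.625, 6.85, 0.994 and 32.7 CPM in Mt2_1, Mt2_2, Mt1_1 and Mt1_2, so the fold rested mainly on the replicates numbered 2 (5.23 ± 1.36, adjusted p = 0.0379, and 0.47 at an equal score). Ighg2b (2.96, and 1.30 at an equal score) and Igha (2.58 and 1.72) had the same direction, with 0.509 to 1.76 and 1.75 to 4.19 CPM on day 9 and 2.13 to 15.7 and 4.94 to 35.9 CPM on day 11. The B cell gene Ms4a1 (-0.19) was not called.

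The lists of vessel genes had few calls, and differences between them were not tested. Of 13 general endothelial genes, 0 were called by edgeR or DESeq2, with 1 higher and 3 lower at an unadjusted p below 0.05, and the median was -0.24 with TMM, -0.22 at an equal score (10 of 13 lower) and 0.24 with total-count scaling. Of 12 genes of the sinusoidal endothelium, the specialized capillary wall of the liver, 1 fell and 0 rose (median -0.76, and -0.19 at an equal score), and 4 fell with the block. Clec4g, a lectin of this wall, measured 142, 80.8, 73 and 96.1 CPM on day 9 and 65.9, 16.1, 38.2 and 15.6 CPM on day 11 (-1.53 ± 0.47, adjusted p = 0.049, and -0.43 at an equal score). Stab1 went the other way, with 108 to 129 CPM on day 9 and 153 to 274 CPM on day 11 (0.89 ± 0.18, adjusted p = 0.0334, and 0.54 at an equal score), below the size of a call. It is a scavenger receptor that macrophages also carry.

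Of 12 genes of capillary and tip endothelium, 2 rose and 0 fell (median 0.44, and 0.21 at an equal score). Apln, the ligand made by sprouting tip cells, measured 5.97, 10.9, 12.2 and 9.61 CPM on day 9 and 15.5, 36.5, 23 and 32.7 CPM on day 11. It rose by 1.48 ± 0.30 (adjusted p = 0.0334) and was 0.71 higher at an equal score (unadjusted p = 0.0139). Its receptor gene Aplnr rose by 2.14 ± 0.56 (0.55 at an equal score, unadjusted p = 0.27), from 1.28 to 2.11 CPM to 2.16 to 14.8 CPM. Vegfa, the main growth factor of vessels, was lower on day 11, with 88.8, 76.8, 82.9 and 69.5 CPM on day 9 and 60, 42.9, 46.2 and 42.4 CPM on day 11. The days did not overlap, and the log2 fold change of -0.73 ± 0.14 (adjusted p = 0.0334, and -0.48 at an equal score) was short of a call in size. Per 1000 Alb counts the days overlapped for Vegfa and the direction turned, with means of 1.17 on day 9 and 2.14 on day 11.

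The study also stained for several antigens, whose genes complete this account. Cd34 had 53.6 to 96.6 CPM on day 9 and 107 to 189 CPM on day 11 (0.94 ± 0.25, adjusted p = 0.0398), which was not a call by size. Cd34 at an equal score was 0.31 higher (unadjusted p = 0.168), and its days overlapped per Alb count. Mcam, which encodes CD146, went from 18.6 to 21.5 CPM to 21.8 to 32.7 CPM (0.46 ± 0.14, and 0.16 at an equal score). Pecam1, which encodes CD31, had 42.1 to 55.5 CPM on day 9 and 36 to 44 CPM on day 11. Its log2 fold change was -0.24 with TMM and 0.24 with total-count scaling, and neither was called. Mrc1 (0.31, and 0.29 at an equal score), Lyve1 (-0.53 and -0.22), the neutrophil gene S100a9 (0.86 and 0.57) and S100a4 (1.24 and 0.78, at most 3.45 CPM in any library) were not called.

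Several acute-phase genes fell on day 11, serum amyloid A among them. Of 22 tested, 5 fell and 1 rose (median -0.81), with 10 falling under the block and 11 without Mt2_1. The member that rose was Cd14, given above, which is also a macrophage gene. The serum amyloid A genes Saa1, Saa2 and Saa4 lie close together on chromosome 7, and the 250 bases before their starts are shown because the genes fell together. In these RefSeq sequences (GRCm38.p6, printed 5′ to 3′ on the strand of the gene), capitals mark matches to TTGNNNAAT on either strand, a loose form of the sequence that C/EBP factors of the acute phase bind. Matches overlap each other in Saa1 and Saa2, which have 2 each, and Saa4 has 1. Of 32851 upstream windows of this length, 10.4% hold a match, so its presence is a description only.
Saa1, chr7:46742981-46743230, minus strand: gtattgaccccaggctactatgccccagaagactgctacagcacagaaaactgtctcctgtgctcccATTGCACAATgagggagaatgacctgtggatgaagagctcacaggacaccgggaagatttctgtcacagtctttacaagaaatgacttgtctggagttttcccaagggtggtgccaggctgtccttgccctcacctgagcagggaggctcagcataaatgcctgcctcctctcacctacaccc
Saa2, chr7:46751583-46751832, plus strand: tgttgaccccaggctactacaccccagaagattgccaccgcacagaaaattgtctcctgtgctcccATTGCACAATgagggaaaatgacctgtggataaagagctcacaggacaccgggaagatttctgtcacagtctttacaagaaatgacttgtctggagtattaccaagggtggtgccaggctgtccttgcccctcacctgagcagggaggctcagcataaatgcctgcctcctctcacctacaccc
Saa4, chr7:46732604-46732853, minus strand: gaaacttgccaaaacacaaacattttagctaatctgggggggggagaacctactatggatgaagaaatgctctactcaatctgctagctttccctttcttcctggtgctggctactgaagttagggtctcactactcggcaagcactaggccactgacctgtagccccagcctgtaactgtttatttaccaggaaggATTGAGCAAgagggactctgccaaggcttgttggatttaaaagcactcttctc
The windows of Saa1 and Saa2 were identical at 238 of 251 aligned positions (94.8%). The transcripts of both genes are alike too, so the split of reads between them is uncertain.

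Saa1, which encodes an apolipoprotein released in inflammation, measured 770, 953, 493 and 843 CPM in Lt_1, Lt_2, Mt3_1 and Mt3_2. It measured 292, 217, 106 and 194 CPM in Mt2_1, Mt2_2, Mt1_1 and Mt1_2. All day 11 libraries were lower, and the lowest was Mt1_1, a library with a high Alb level. The log2 fold change was -1.92 ± 0.33 (adjusted p = 0.0334) and was -1.86 ± 0.46 at an equal score (unadjusted p = 0.00274). Saa2 fell from 337 to 531 CPM to 32 to 125 CPM (-2.14 ± 0.39, and -2.36 at an equal score). Saa4, the constitutive member of the family, fell from 362 to 737 CPM to 65.1 to 261 CPM (-2.17 ± 0.47, and -1.21 at an equal score). DESeq2 called all 3 genes at an equal score.

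The ratio to albumin alone gave a different layout for Saa1. Per 1000 Alb counts it stood at 7.67, 18.9, 5.99 and 15.5 in Lt_1, Lt_2, Mt3_1 and Mt3_2 and at 5.27, 18.2, 1.8 and 14.2 in Mt2_1, Mt2_2, Mt1_1 and Mt1_2. This ratio went with the replicate number on both days, and the days overlapped, with a ratio of their means of 0.82. Within replicates numbered 1 the day 11 values were the lower ones, at 5.27 and 1.8 against 7.67 and 5.99. Within replicates numbered 2 the days overlapped, at 18.2 and 14.2 against 18.9 and 15.5. Across all 14864 genes other than Alb, 2099 (14.1%) were higher without overlap per Alb count on day 11 and 35 (0.235%) lower.

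**Figure D4:**
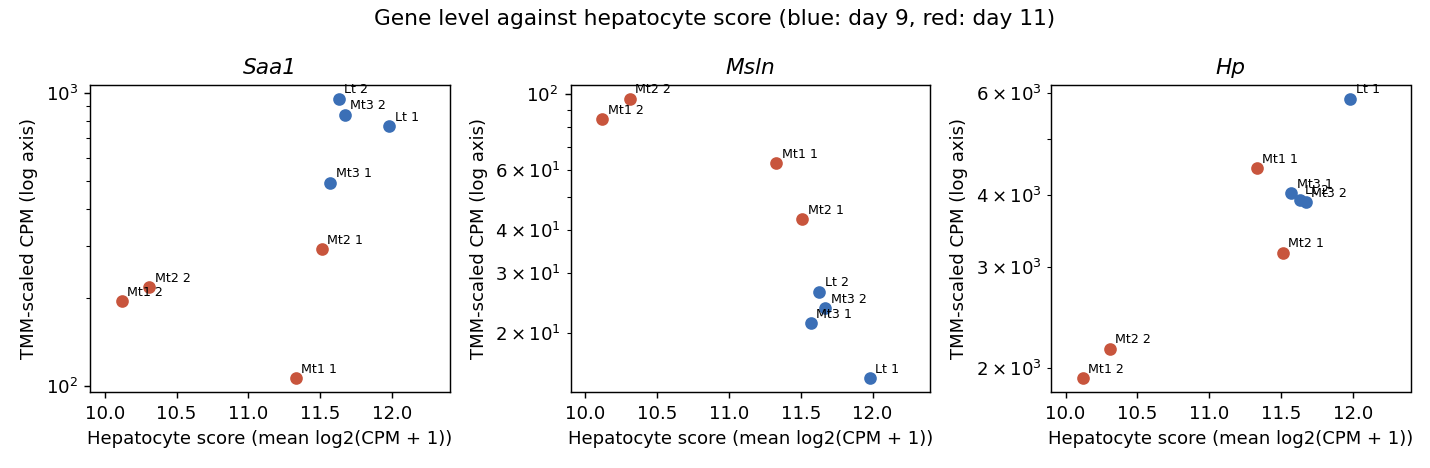
TMM-scaled CPM on a log axis against the hepatocyte score for Saa1, Msln and Hp, with 1 point per library, day 9 in blue and day 11 in red. Saa1 in Mt2_1 and Mt1_1 (292 and 106 CPM) lies below all day 9 libraries (493 to 953 CPM), although their scores of 11.51 and 11.33 are near the 11.57 of Mt3_1.

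At an equal score, 10 acute-phase genes had values above 0 and 12 below (median -0.14), with 1 higher and 5 lower at an unadjusted p below 0.05. The 5 were the genes Saa1, Saa2 and Saa4 given above, Crp, and Saa3, a member of the family made largely outside the liver (0.10 with TMM, and -2.00 at an equal score, unadjusted p = 0.0423). Haptoglobin, Hp, had 5860, 3920, 4020 and 3880 CPM on day 9 and 3170, 2160, 4440 and 1920 CPM on day 11 (-0.60 ± 0.35, adjusted p = 0.207), and its estimate at an equal score was 0.05. The fibrinogen chains Fga (-0.83), Fgb (-1.09) and Fgg (-0.95) were not called and came to 0.14, -0.13 and 0.01 at an equal score. C-reactive protein, Crp, fell from 470 to 689 CPM to 103 to 345 CPM (-1.50 ± 0.38, adjusted p = 0.0371, and -0.63 at an equal score, unadjusted p = 0.00976). Hamp, the gene of the iron hormone hepcidin, measured 551, 421, 268 and 805 CPM on day 9 and 148, 87.1, 167 and 20.9 CPM on day 11 (-2.27 ± 0.59, adjusted p = 0.038). Hamp at an equal score was -1.21 (unadjusted p = 0.0742). Relative to the liver-restricted sum 3 acute-phase genes were tested and 0 were called. Crp was at 0.04 there, with the days overlapping (unadjusted p = 0.817 by edgeR), Saa4 at -0.71 and Hamp at -0.78.

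The clock repressor Nr1d1 and the clock-controlled Tef fell on day 11. They were the 2 called of 18 clock genes, of which 15 were lower and 3 higher (median -0.62, and -0.29 at an equal score), with 5 lower and 1 higher at an unadjusted p below 0.05 at an equal score. Nr1d1, the repressor REV-ERBalpha, had 31.5, 43.3, 31.2 and 45.7 CPM on day 9 and 21.4, 10.6, 9.65 and 10.4 CPM on day 11. It fell by 1.55 on the log2 scale (SE 0.28, adjusted p = 0.0334) and was -1.19 at an equal score (unadjusted p = 0.00603). Tef, a clock-controlled transcription factor, had 50.9, 69.1, 44 and 61.9 CPM on day 9 and 28.9, 21.3, 30.1 and 22.1 CPM on day 11 (-1.14 ± 0.18, and -0.88 at an equal score). Nr1d2 (-0.96), a relative of Nr1d1, Hlf (-0.91), a relative of Tef, and the cryptochrome Cry2 (-0.70) were lower in all day 11 libraries and missed the call by size. Per1, a repressor of the loop, had 25.9 to 34.6 CPM on day 9 and 34.3 to 53.3 CPM on day 11, overlapped narrowly and was not called (0.55 ± 0.16, and 0.74 at an equal score). Arntl (-0.35) and Clock (-0.65), the activators of the loop, were not called. The hour of collection is not given in the sources used here, and its part in these values was not tested.

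The lists of liver metabolism had medians below 0 on day 11, and their values at an equal score differed between lists. Of 16 bile acid genes, all were lower and 4 fell (median -1.33), with 13 falling under the block, and the median was -0.36 at an equal score and 0.01 over the 12 tested relative to the liver-restricted sum, with 6 higher and 6 lower. Cyp7a1, the rate-limiting enzyme of bile acid synthesis, measured 59, 80.6, 38.1 and 106 CPM on day 9 and 31.9, 5.54, 9.47 and 3.69 CPM on day 11 (-2.50 ± 0.65, adjusted p = 0.038, and -1.38 at an equal score). The bile acid receptor gene Nr1h4 fell from 85 to 143 CPM to 22.6 to 63 CPM (-1.58 ± 0.34, and -0.81 at an equal score). Of 21 xenobiotic cytochrome P450 genes and their regulators, 3 fell (19 under the block), with a median of -1.32 that became -0.35 at an equal score and 0.01 over the 17 tested relative to the liver-restricted sum, with 9 higher and 8 lower. Of 22 genes of fatty acid oxidation and ketogenesis 0 were called by edgeR, while 8 were lower and 1 higher at an unadjusted p below 0.05, DESeq2 called 3 down and 1 up, and 10 fell with the block. Their median was -0.91 with TMM, -0.09 at an equal score, with 0 genes at an unadjusted p below 0.05, and 0.26 over the 5 tested relative to the liver-restricted sum. For 25 genes of cholesterol synthesis and lipogenesis the sign of the median turned, from -0.38 (2 fell, 4 under the block) to 0.43 at an equal score, where 18 were higher, and it was 0.02 with total-count scaling. For 18 fasting and glucocorticoid genes it turned as well, from -0.39 (2 fell, and 7 fell and 1 rose under the block) to 0.33 at an equal score, where 11 were higher.

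Of 15 growth hormone and sex-biased liver genes, 5 fell and 0 rose (11 fell under the block and 12 with DESeq2, 14 without Mt2_1, median -1.48). The median was -0.54 at an equal score, and -0.33 over the 10 of them tested relative to the sum of liver-restricted genes, with 0 called on both scales. The 5 that fell were Cyp4a12a (-1.80, and -1.14 at an equal score), Cyp17a1 (-2.45 and -1.45), Igfals (-1.70 and -0.68), which encodes the carrier subunit for insulin-like growth factors, and the major urinary protein genes Mup3 (-1.77 and -0.91) and Mup20 (-1.19 and -0.53). Relative to the liver-restricted sum, Cyp4a12a was at -0.29, Cyp17a1 at -0.83, Igfals at -0.37 and Mup3 at -0.25. Mup17 had 1070, 431, 1440 and 1030 CPM on day 9 and 40.1, 29.7, 1.7 and 46.1 CPM on day 11 (-5.08 ± 0.88, adjusted p = 0.0334, and -2.93 relative to the liver-restricted sum), and Mup18 had a fold change of -7.62 ± 1.56 with 234 and 405 CPM in Lt_1 and Mt3_2 only. Mup genes are near-identical copies between which reads can be split, so values of single members, Mup1 (-2.81) and Mup9 (-2.84) included, are uncertain. Tdo2 (-1.81, and -0.68 at an equal score), which degrades tryptophan and belongs to the fasting and glucocorticoid list, fell as well.

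Relative to the sum of the liver-restricted genes, with TMM scaling among them, no gene passed the test. Of 397 tested, 0 were called (0% in each direction) and the median was 0.01, with 46 (11.6%) higher and 39 (9.82%) lower at an unadjusted p below 0.05. Without that TMM scaling 0 were called and the median was -0.12. DESeq2 called 5, the lower genes Upp2, Thrsp, Cyp7a1 and Mup17 and the higher Mup16, and without Mt2_1 edgeR called 8. By overlap, 28 genes (7.05%) were higher and 18 (4.53%) lower in all day 11 libraries. Thrsp, a regulator of fat synthesis, stood at 706, 595, 297 and 602 CPM of the liver-restricted part in Lt_1, Lt_2, Mt3_1 and Mt3_2 and at 277, 131, 165 and 135 in Mt2_1, Mt2_2, Mt1_1 and Mt1_2 (-1.63 ± 0.33, adjusted p = 0.116). Upp2, which cleaves uridine, stood at 454, 808, 496 and 938 on day 9 and at 318, 248, 130 and 196 on day 11 (-1.59 ± 0.33, adjusted p = 0.116). Both genes were lower in every day 11 library on this scale. On the higher side, the plasma glycoprotein gene Hrg went from 1960 to 2280 to 2760 to 3800 (0.63 ± 0.11, adjusted p = 0.116), and the hepatocyte factor Hnf4a from 2840 to 3420 to 4070 to 4280 (0.37 ± 0.09). These ranges include the TMM scaling among liver-restricted genes, and per Alb count Hrg and Hnf4a overlapped between the days.

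Per 1000 Alb counts, 0 of 396 liver-restricted genes (0%) were higher without overlap on day 11 and 15 (3.79%) were lower. Thrsp was among the 15, with 2.4, 2.85, 1.14 and 2.94 on day 9 and 1.14, 0.549, 0.343 and 0.463 on day 11, Mt2_1 and Mt3_1 being equal at the digits printed. Igfbp1, a fasting-induced binding protein outside the liver-restricted set, was higher by the same measure, with 1.32, 0.865, 3.66 and 0.936 on day 9 and 8.03, 23.6, 7.33 and 12.3 on day 11. With TMM scaling Igfbp1 overlapped between the days, at 43.6 to 301 CPM and 169 to 445 CPM (1.33 ± 0.61, adjusted p = 0.124, and 1.85 at an equal score).

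Of 18 ER stress genes, among them chaperones of the endoplasmic reticulum, 0 were called by edgeR with TMM scaling or by DESeq2 with its own scaling. With edgeR 3 were higher and 2 lower at an unadjusted p below 0.05 (median 0.03). At an equal score edgeR called 0, while 16 of 18 had values above 0 (median 0.34), 6 of them at an unadjusted p below 0.05, and DESeq2 called Dnajb9 up. The difference between the scales was not tested. Dnajb9, a co-chaperone, measured 58.4, 38.8, 64.1 and 43.7 CPM in Lt_1, Lt_2, Mt3_1 and Mt3_2 and 118, 34.8, 81.1 and 37.3 CPM in Mt2_1, Mt2_2, Mt1_1 and Mt1_2. The liver-rich Mt2_1 and Mt1_1 were the high ones, and the estimate was 1.24 ± 0.24 at an equal score (unadjusted p = 0.00053) against 0.40 with TMM. Hspa5, the chaperone BiP, was 0.66 higher at an equal score (unadjusted p = 0.00333).

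The erythroid list had a lower median on day 11 with and without the score. Of 7 tested, 2 fell and 0 rose (median -1.18, and -0.92 at an equal score), and 4 fell with the block. The beta-globin gene Hbb-bs measured 128, 175, 101 and 152 CPM on day 9 and 79.8, 61.3, 42.2 and 62.4 CPM on day 11 (-1.18 ± 0.23, adjusted p = 0.0334, and -1.16 at an equal score). Globin copies share sequence, so Hba-a1 (-0.97, and -0.96 at an equal score) and Hbb-bt (-1.62 and -1.72) cannot be read as separate measurements. How much blood each piece held was not measured.

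Non-liver genes were compared relative to their own sum, with TMM scaling among them. Genes of low level in liver that are rarer still in tumor remain in this set, so the liver share is reduced in the comparison and not removed. Of 2335 tested, 6 rose (0.257%) and 82 fell (3.51%), while 329 were higher (14.1%) and 396 lower (17%) at an unadjusted p below 0.05. Without the TMM scaling 3 rose and 100 fell, and the median moved from -0.08 to -0.17. By overlap, 235 (10.1%) were higher and 216 (9.25%) lower in every day 11 library. The count of calls was 0 without Lt_2, Mt2_2 or Mt1_2, 5 without Mt3_2, 27 without Mt1_1, 28 without Lt_1 and 189 without Mt2_1. It was 208 with the block, which included all 88 calls made without it. With the further condition that Ht held at least 4 times the level of con, chosen after seeing the data, 2 rose and 24 fell.

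Of 7 dendritic cell genes tested on this scale, 1 fell and 0 rose, with a median of -0.81. The same list had 0 calls and a median of -0.01 over 10 genes with TMM scaling. Of 8 monocyte genes 0 were called, with 4 higher and 4 lower (2 and 3 at an unadjusted p below 0.05), and Ly6c2 was called down under the condition on Ht (-1.12, adjusted p = 0.0494, against -0.98 without it). The single macrophage gene tested, Ms4a7, rose. Clec10a, a lectin of dendritic cells and macrophages, stood at 560, 449, 484 and 519 CPM of the non-liver part in Lt_1, Lt_2, Mt3_1 and Mt3_2 and at 271, 246, 280 and 204 in Mt2_1, Mt2_2, Mt1_1 and Mt1_2 (-1.01 ± 0.18, adjusted p = 0.0288). Ccl22, a chemokine of mature dendritic cells, stood at 460, 515, 498 and 435 on day 9 and at 261, 309, 144 and 193 on day 11 (-1.07 ± 0.23, adjusted p = 0.0376). Il12b, the p40 subunit of interleukin 12, stood at 153, 151, 150 and 127 on day 9 and at 69, 45, 30.3 and 64.8 on day 11 (-1.47 ± 0.33, adjusted p = 0.0381). The libraries of each day lay together for all 3 genes. These genes were named after their values were seen, as was Slamf8 (-1.14), a receptor of macrophages. Siglech (-1.30), a marker of plasmacytoid dendritic cells, was the dendritic cell gene that fell, and it was not called under the condition on Ht. Ly6i, a Ly6 family gene, had the widest fall among the immune genes named by rule (-2.56 ± 0.44), from 126 to 545 to 41.7 to 98.5. Of the other genes named by rule, Rec8 (-2.74), a cohesin subunit of meiosis, Ttc6 (-2.60), Efcc1 (-2.50) and Tnnc1 (-2.37), a troponin, each stayed at or below 3.49 TMM-scaled CPM and were not among the 24 genes that fell under the condition on Ht.

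The 6 genes that rose were Ms4a7, Tent5b, Lancl3 (1.21), Nol4 (1.08), Ighg2b (2.11) and Ighg2c, the last 2 being immunoglobulin constant regions. Under the condition on Ht, Tent5b and Ighg2b were called up and the other 4 were not. Tent5b, a poly(A) polymerase, had 325, 358, 553 and 456 CPM of the non-liver part on day 9 and 828, 1020, 1350 and 880 on day 11 (1.27 ± 0.21, adjusted p = 0.0288). Ms4a7 had 876, 424, 1040 and 424 on day 9 and 1310, 1830, 1280 and 1600 on day 11 (1.14 ± 0.27, adjusted p = 0.0416). Msln had the smallest p of all non-liver genes, with 1820, 2030, 2160 and 1980 on day 9 and 3390, 4620, 4070 and 3870 on day 11. Its log2 fold change of 1.00 ± 0.13 (adjusted p = 0.0101) fell just short of the size required for a call before rounding. Cell cycle genes on this scale had 0 calls among 12 tested, with 6 higher at an unadjusted p below 0.05 and a median of 0.31 against -0.08 over all non-liver genes.

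**Figure D5:**
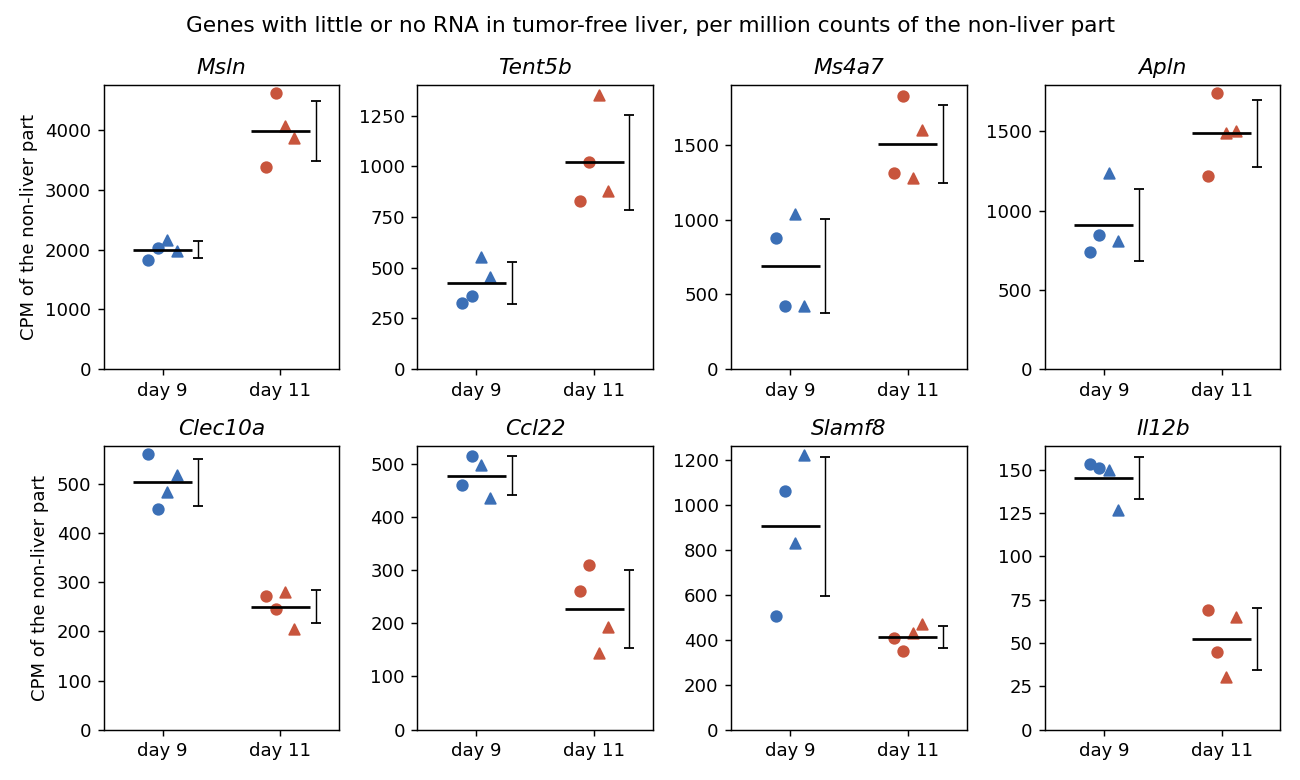
CPM of the non-liver part for 8 genes in each library by day, with symbols as in the plot of genes by library. Msln lay at 1820 to 2160 on day 9 and 3390 to 4620 on day 11, and Clec10a at 449 to 560 and 204 to 280.

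Some values of single libraries bear on these results. In Lt_1 the fat cell genes stood out, with Adipoq at 4.8 and Cfd at 42.2 CPM, and 0 of the 10 pancreas acinar genes reached the level needed for a test. The male-specific gene Eif2s3y was present in all 8 libraries, from 39.8 to 51.2 CPM on day 9 and from 13.5 to 33.4 CPM on day 11. Mt2_1 was the day 11 library nearest to day 9 in liver part, and leaving it out raised the number of calls as given above. The part of these features in the differences between days was not tested.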

How the data were processed

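Total RNA of tissue pieces was sequenced, and the authors deposited raw counts of reads per gene (54532 genes, unnormalized). The submitters' processing notes list CASAVA, HISAT2 2.0.5 and featureCounts 1.5.0-p3 with GRCm38 (mm10). Each of the 8 libraries held between 16032085 and 18178794 counts. Groups and replicate numbers came from the labels.

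Counts were scaled by TMM, filtered by filterByExpr and tested by edgeR 4.0.16 (R 4.3.3) in a quasi-likelihood model of day, with Benjamini-Hochberg adjustment over all genes tested. SEs come from the F statistic. Single library measures were compared by exact permutation (70 arrangements). Ht_1 and Ht_3, described as made identical, were summed. Con, L-con and Ht entered only the definitions of gene sets. Alternatives used DESeq2 1.42.0, other filters, scalings, models and definitions, and left out each library. The step was tested on simulated data.

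The comparison and the 47 gene lists were chosen with earlier results of these data known; 3 list symbols were not in the table. Named by rule were, in each of the 4 fits, the 10 largest fold changes per direction among called genes without overlap between days and with a mean log2 CPM of at least 1, or the 5 smallest p where fewer than 3 genes were called. List members and genes of stained antigens were named besides. Replicates of the same number deviated together in all 6 pairs of groups (r 0.21 to 0.65 over 14865 genes), and the number was taken as pairing them in the fits with the block only. The main fits and the permutation tests did not use the pairing.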

Additional observations from a re-analysis of the deposited data

Results flagged for a closer look

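Among 124 groups of 4 libraries, 8 held a library whose gap to its nearest neighbor, as a share of the range, exceeded 0.829, the 95% limit of Dixon's test. Chance gives about 1 in 20. Lt_1 was the library apart in 4 of the day 9 groups. Its hepatocyte list score was 12.39 against 11.73 to 11.84 (gap share 0.837), its sinusoidal endothelial score 5.25 against 5.02 to 5.04 (0.911) and its adipose score 4.69 against 1.37 to 1.89 (0.843). Its amino acid response score was the lowest, at 3.88 against 4.25 to 4.3 (0.877). Mt3_1 was lowest on day 9 for granulocyte precursor genes, at 3.3 against 3.76 to 3.84 (0.859). On day 11 Mt2_1 had the lowest macrophage score, 6.53 against 6.87 to 6.89 (0.957), and the highest erythroid score, 3.74 against 2.93 to 3.05 (0.858). Pecam1 was lowest in Mt2_2, at 5.21 against 5.45 to 5.49 on the log2 scale (0.863). Scores are means of log2(TMM-scaled CPM + 1). The cause of these gaps was not tested.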

How the results depend on the processing

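The number of genes changed from day 9 to day 11, 1247, became 2064 with DESeq2, 2377 with the replicate number as a block, 2969 with no fold threshold and 3034 with total-count scaling. It became 0 in the medium-content libraries alone and 0 in a model of 4 groups (3554 and 5380 genes at an unadjusted p below 0.05), and lay between 0 and 3092 with single libraries left out. It stayed within 1.5 times with at least 10 counts required, no filter or 13 tissue samples. At an equal hepatocyte score the count of 0 became 30 with DESeq2 and 0 to 4 with a library left out, and stayed 0 with the block. With Alb as covariate in place of the score it also stayed 0, but 3960 genes had an unadjusted p below 0.05 against 1555. The smallest adjusted p was then 0.0773 against 0.41. Within the liver-restricted genes, 0 became 5 with DESeq2 and 0 to 8 with a library left out, and the block left it at 0. Within the non-liver genes, 88 became 170 with DESeq2, 208 with the block, 310 with no filter, 155 with no fold threshold, 0 in the medium-content libraries, 43 and 475 with con at most 0.5 and 5 CPM, 26 with the condition on Ht, and 0 to 189 with a library left out. The Alb difference of -0.88 was -1.21 to -0.56 with a library left out, and the hepatocyte score in its place gave -0.89. Alb itself, not called otherwise, was called with the block (-1.35, adjusted p = 0.023). Signs turned for Pecam1 with total-count scaling (0.24) and, at an equal score, for Alb (-0.36), Lyve1 (0.19) and S100a9 (-0.39) with the block, Alb with Alb as covariate (-0.22), and with a library left out: Alb ranged from -0.07 (without Mt1_1) to 0.43, Lyve1 from -0.68 to 0.23 (without Mt2_1) and S100a9 from -0.13 (without Mt1_1) to 1.48. The cause of these changes was not tested. Depth was alike in all libraries, and genes of a few CPM have wide errors.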
